A study of Homo sapiens with 96 samples.

Results

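Adenosine-to-inosine editing was compared between genotoxic drugs and vehicle in 6 RNA-seq samples of the chronic myeloid leukemia cell line K562. These samples are 6 of the 96 in the series and were taken by their labels: every culture first received DMSO for 3 h and was then given a drug or DMSO again. The second agent was talazoparib for 3 h, mirin for 6 h, SN-38 for 6 h or etoposide for 6 h (4 drug samples), or DMSO for 3 h or 6 h (2 vehicle samples, called the 3 h and the 6 h vehicle). Each condition is 1 sample, so a drug was set against the vehicle of its own duration without a replicate check, and the 4 drugs together against both vehicles with a test over samples. Mirin, SN-38 and etoposide therefore share the 6 h vehicle, and talazoparib is alone at 3 h. The cell line could not be checked against marker genes, because the list holds editing levels and no expression.

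Inosine is made from adenosine in double-stranded RNA by ADAR enzymes and is read as G, so that an edited position appears in RNA-seq as an A-to-G substitution. Most editing lies in introns and untranslated regions, where RNA folds back on itself, and few sites lie in coding sequence. The drugs act on DNA in different ways. Talazoparib inhibits PARP enzymes and traps them on DNA breaks. Mirin inhibits the MRE11 nuclease of the MRN complex. SN-38, the active metabolite of irinotecan, traps topoisomerase I on DNA, and etoposide traps topoisomerase II. Topoisomerases relieve the supercoiling that builds up around elongating RNA polymerases.

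For each site the authors gave a level, the fraction of reads with G, averaged over the detection tools that found the site in that sample. A site is called found in a sample where its level is above 0. The paper reports that its tools were not accurate enough in single samples to determine sites induced by a particular drug. Found is thus a call that may be false. A 0 can mean that a site was not edited or that no reads covered it, and the list gives no depth at a site, so a single level carries no interval and transcript abundance and editing cannot be told apart in a number of found sites. Of 4092 sites with levels, 1158 (28.3%) had a level above 0 somewhere in the 6 samples, 780 of these (67.4%) in 1 sample only and 18 in all 6.

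The sites whose values carry the comparisons below are shown first, as GRCh38 sequence of the transcribed strand with the edited adenosine in capitals and 14 bases on either side. The first 4 had a level in all 6 samples. They are a pair in CD164, which encodes a sialomucin (chr6:109372604-109372632 and chr6:109372543-109372571, minus strand, listed under 5′ UTR and in an exon of 1 GENCODE transcript), 1 in the coding sequence of BLCAP (chr20:37519156-37519184, minus strand) and 1 in SSR4, a subunit of the translocon-associated complex (chrX:153795845-153795873, plus strand, listed under 5′ UTR). The next 4 were intronic and, taken as single sites, split the drugs from the vehicles: RCN2 (chr15:76939449-76939477, plus strand), MRPL23 (chr11:1981428-1981456, plus strand), ARHGEF12 (chr11:120363642-120363670, plus strand) and KCTD13 (chr16:29918091-29918119, minus strand). The last is the coding site of NEIL1, a DNA glycosylase of base excision repair (chr15:75353731-75353759, plus strand).
CD164_109372618: aatattttcctgtaAgattttctcagcat
CD164_109372557: ggatggatggaagtAtgtacaacaatgct
BLCAP_37519170: ggcagagatcatgtAttgcctccagtggc
SSR4_153795859: gagaaggctaaggcAaggtcctttctctc
RCN2_76939463: gctttagattagttAggattttatttttt
MRPL23_1981442: cctctgtggggtgtAgaagagttctctgc
ARHGEF12_120363656: attgctaaccagcaAgataatgtcaagtt
KCTD13_29918105: gagattatttgtaaAgtcatgctttccat
NEIL1_75353745: tcccacagggggcaAaggctacgggtcag

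More editing sites were found in the mirin, SN-38 and etoposide samples than in either vehicle. There were 244 sites in the 3 h vehicle, 250 in the 6 h vehicle, 255 with talazoparib, 378 with mirin, 328 with SN-38 and 389 with etoposide. All 4 drug samples lay above both vehicles, talazoparib by only 5 sites. The drugs averaged 338 ± 61.1 sites (SD, n = 4) and the vehicles 247 ± 4.24 (SD, n = 2), a ratio of 1.37. An exact permutation test over the 6 samples gave p = 0.133 (two-sided, adjusted p = 0.711 over 8 measures), which is the smallest p that the 15 arrangements of 4 and 2 samples allow, so that this design cannot pass 0.05. Such p-values measure the spread between these samples only.

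Against the vehicle of its own duration, the number of sites was 1.05 times as high with talazoparib (95% interval 0.873 to 1.25), 1.51 times with mirin (1.29 to 1.78), 1.31 times with SN-38 (1.11 to 1.55) and 1.56 times with etoposide (1.32 to 1.83). The intervals are exact binomial ones and cover counting error only. The 6 h vehicle stood at 1.02 times the 3 h vehicle (0.855 to 1.23). Divided by the number of sequenced reads of each library, the ratios were 1.18, 1.47, 1.34 and 1.38 in the same order. Among 13 other DMSO-only samples of the series the number of found sites ran from 109 to 633 with a median of 255, and 2 of them lay above the etoposide sample. Vehicles of the series thus differed by more than the drugs did here. Those samples differed in duration and wash-out as well as in library set, and these cannot be told apart.

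**Figure D1:**
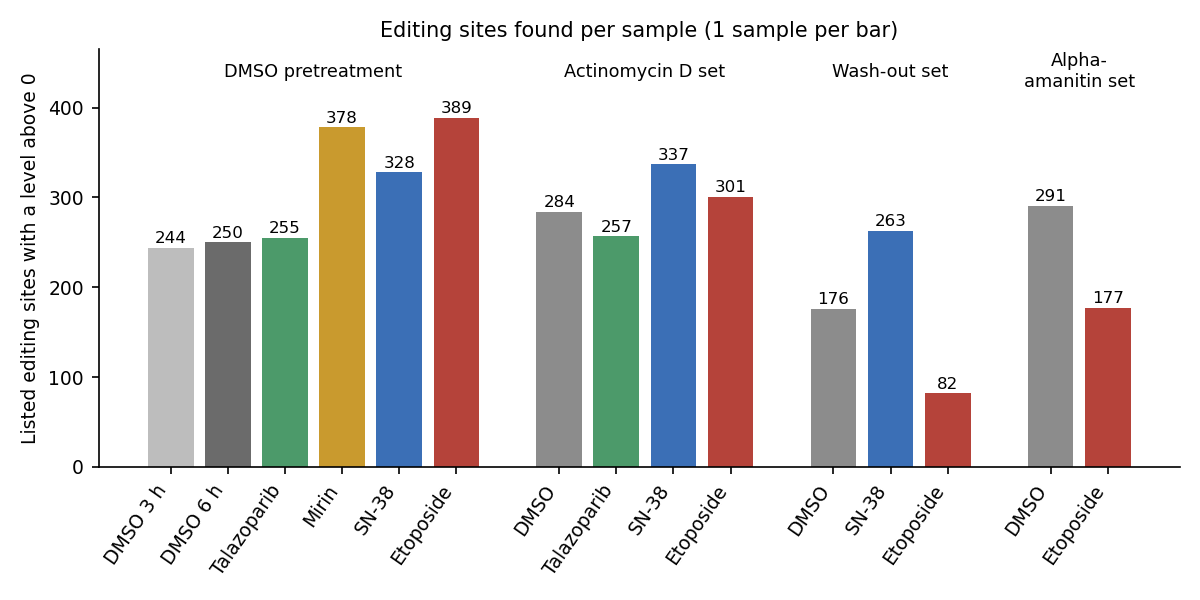
Number of listed editing sites with a level above 0 in each sample (y axis, sites), with 1 bar per sample, for the DMSO pretreatment set and for the drug and DMSO samples of 3 other library sets before their second treatment began. In the DMSO pretreatment set mirin (378), SN-38 (328) and etoposide (389) stand above both vehicles (244 and 250), while etoposide stands below DMSO in the wash-out (82 against 176) and alpha-amanitin sets (177 against 291).

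Other library sets of the series also held cells after 6 h of drug or DMSO, taken before the second treatment had begun. SN-38 exceeded the DMSO sample of its set there too, with 337 against 284 sites in the actinomycin D set and 263 against 176 in the wash-out set. SN-38 was thus higher in 3 of 3 sets, with a mean log2 ratio of 0.41 ± 0.17 (SD, n = 3). The exact sign-change test gave p = 0.25, the smallest that 3 sets allow (adjusted p = 0.300 over 6 tests). Etoposide was not on 1 side of DMSO: it had 301 against 284 sites in the actinomycin D set, 82 against 176 in the wash-out set and 177 against 291 in the alpha-amanitin set. Over the 4 sets its mean log2 ratio was -0.27 ± 0.78 (SD, n = 4; exact sign-change test, two-sided p = 0.625, smallest possible 0.13). Talazoparib, with 257 against 284 sites in the actinomycin D set, was also on the other side of DMSO there, after 6 h in place of 3 h. The 1.56-fold difference of etoposide described above was therefore seen in the DMSO pretreatment set and not in the wash-out and alpha-amanitin sets.

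Most found sites were not shared between samples. Of the 1158 sites, 737 were found in drug samples only, 178 in vehicles only and 243 in both kinds, from 4 drug samples and 2 vehicles. Of the 737, 606 were in 1 drug sample, 105 in 2, 24 in 3 and 2 in all 4. The vehicles shared 73 sites, 29.9% of those in the 3 h vehicle and 29.2% of those in the 6 h vehicle. SN-38 and etoposide shared 104 sites (31.7% of the SN-38 sites and 26.7% of the etoposide sites), mirin and etoposide 102 (27.0% and 26.2%), and talazoparib shared 66 to 70 sites with each of the other drugs. The overlap of any pair thus stayed within 18.0% to 36.8% of either sample, vehicles and drugs alike.

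Turnover from vehicle to drug was accordingly large, as it was between the vehicles. Of 421 sites found in either vehicle, 177 (42%) were in the 6 h vehicle only and 171 in the 3 h vehicle only. For talazoparib 175 of 419 sites (41.8%) were in the drug sample only and 164 in its vehicle only. For mirin 286 of 536 (53.4%) were in the drug only and 158 in its vehicle only, for SN-38 261 of 511 (51.1%) and 183, and for etoposide 307 of 557 (55.1%) and 168. That the gains at 6 h outnumbered the losses follows from the totals above and is no separate result. The losses (158 to 183 sites) were of the size seen between the vehicles. A site found only with the drug had a median level of 0.4 for talazoparib, 0.366 for mirin, 0.333 for SN-38 and 0.354 for etoposide, and was found in a median of 3 to 5 of the other 89 samples with a column. Sites found only in the vehicle of the pair were at 0.333 to 0.428 and were found in a median of 6 or 7 of those samples.

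Few sites followed the drugs as a group. Found with all 4 drugs and in neither vehicle were 2 sites (0.173% of 1158), and in both vehicles and with no drug 4 sites (0.345%). The first were intronic sites of RCN2, which encodes a calcium-binding protein of the endoplasmic reticulum, and of RB1CC1, an autophagy scaffold. In RCN2 the level was 0.424 with talazoparib, 0.735 with mirin, 0.311 with SN-38 and 0.360 with etoposide, and in RB1CC1 0.500, 0.800, 0.500 and 0.781. Both sites were found in other samples of the series as well, RCN2 in 23 and RB1CC1 in 35 of 89. The 4 sites of vehicles only lay in MRPL23, a mitochondrial ribosomal protein gene (0.625 in the 3 h and 0.778 in the 6 h vehicle), ARHGEF12 (0.450 and 0.500), KCTD13, a cullin 3 adaptor (0.25 and 0.133), and the vlincRNA listed at LINC00534 (0.13 and 0.143). VlincRNAs are very long intergenic non-coding RNAs. The adenosine adjacent to the KCTD13 site was found in the 6 h vehicle and with all 4 drugs, so the split there holds for the single site only.

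A grouping chosen after the values were seen, the 3 drugs at 6 h against both vehicles and talazoparib, gave few sites. Of the 1158 found sites, 10 were on the drug side and 6 on the other, and their distances given below were not tested. The 10 were intronic: C1orf52 (2 sites), RCN2, RNF138, ARL6IP6, CSTF1, MRPL3, PLSCR1, PDCD2 and RAP2C. At the site of CSTF1, a subunit of the cleavage stimulation factor of 3′ end formation, the level was 0.427 with mirin, 0.444 with SN-38 and 0.503 with etoposide. At PLSCR1, a phospholipid scramblase, it was 0.600, 0.270 and 0.500. The 10 sites lay 2.55 to 28.5 kb from the start of their host gene. The 6 sites found in both vehicles and with talazoparib but not with the other drugs lay in RABGAP1L, TRPM7, ITGAV, ADGRB3, SRGAP2B and LINC00534, 38.8 to 101 kb from the start. SRGAP2B has near-identical copies in the genome, so its site is uncertain. At ITGAV, the integrin alpha V subunit, the level was 0.500 in the 3 h vehicle, 0.381 in the 6 h vehicle and 0.550 with talazoparib. At TRPM7, a channel kinase, it was 0.500, 0.571 and 0.4.

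The distance of edited intronic sites from the start of their host gene differed between the drugs, a comparison added after the data were seen. The gene start is the outermost start in GENCODE of the gene on the same strand. In the vehicles the median distance was 25.7 kb (154 sites, 3 h) and 27.9 kb (156 sites, 6 h). It was 29.4 kb with talazoparib (160 sites), 35.8 kb with mirin (265 sites), 11.2 kb with SN-38 (228 sites) and 18.4 kb with etoposide (260 sites). SN-38 and etoposide lay below both vehicles, and talazoparib and mirin above both. Over all 4 drugs the difference from the vehicles was accordingly small, -3.10 kb (exact permutation test, two-sided p = 0.933). In 13 other DMSO-only samples, of differing duration and handling, the median ran from 16.2 to 42.7 kb. None of them lay below the SN-38 sample and 2 below the etoposide sample.

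By zone, SN-38 had more sites near gene starts and fewer far from them than its vehicle. Within 10 kb of the start were 37 sites of the 6 h vehicle, 23.7% of its intronic sites (exact 95% interval 17.3 to 31.2%), and 102 sites with SN-38, 44.7% (38.2 to 51.4%). Beyond 50 kb were 56 sites of the vehicle, 35.9% (28.4 to 44%), and 22 with SN-38, 9.65% (6.15 to 14.2%). With etoposide 92 sites, 35.4% (29.6 to 41.5%), were within 10 kb and 61 beyond 50 kb. Mirin had 64 sites within 10 kb, 24.2% (19.1 to 29.8%), and 96 beyond 50 kb, and so had more sites in each zone at shares close to those of the vehicle (23.7% and 35.9%). Talazoparib had 30 near sites, 18.8% (13.0 to 25.7%), against 48 in the 3 h vehicle, 31.2% (24.0 to 39.1%). Neighbouring sites come from the same transcripts, so these intervals, which cover counting error, are too narrow.

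**Figure D2:**
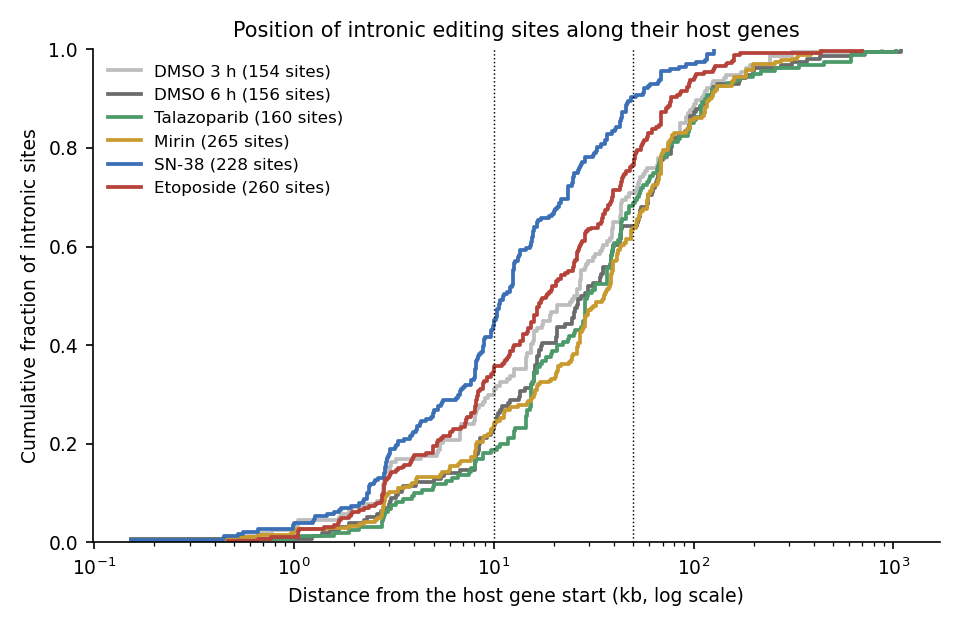
Cumulative fraction of intronic editing sites (y axis) by distance from the start of the host gene (x axis, kb, log scale), with 1 line per sample and dotted lines at 10 and 50 kb. The SN-38 line lies above the others between 10 and 50 kb, with 44.7% of its sites within 10 kb against 23.7% in the 6 h vehicle, and the etoposide line (35.4%) lies between.

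The shorter distance with SN-38 was seen between host genes and not within most genes of both samples. Intronic sites were found both with SN-38 and in the 6 h vehicle in 34 genes, and in these the median site was nearer to the start with SN-38 in 9 genes, farther in 16 and at the same distance in 9. In the 102 genes with intronic sites with SN-38 but not in the vehicle the median distance was 11.8 kb, and in the 78 genes of the vehicle alone it was 39.1 kb. The former genes had a median length of 62.2 kb and the latter of 85.0 kb. For etoposide the 113 genes of the drug alone stood at 18.9 kb and the 61 of the vehicle alone at 31.3 kb, with gene lengths of 78.2 and 89.2 kb. Within the 51 genes of both samples the median site was nearer to the start with etoposide in 20, farther in 14 and at the same distance in 17. As a share of gene length the median position of a site was 41.9% in the 6 h vehicle, 23.0% with SN-38, 29.1% with etoposide and 48.5% with mirin. The 3 h vehicle, at 31.9%, stood nearer to etoposide than to the 6 h vehicle on this scale.

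The shorter distance with SN-38 was found again in the other sets. The median was 24.9 kb with SN-38 against 39.4 kb with DMSO in the actinomycin D set and 13.8 against 24.6 kb in the wash-out set, so that SN-38 was lower in 3 of 3 sets, with a mean log2 ratio of -0.94 ± 0.34 (SD, n = 3; exact sign-change test, p = 0.25, the smallest possible). With etoposide the median was 14.6 against 39.4 kb in the actinomycin D set, 8.87 against 25.1 kb in the alpha-amanitin set and 26.1 against 24.6 kb in the wash-out set, where the etoposide sample held only 39 intronic sites. Etoposide was lower in 3 of 4 sets, with a mean log2 ratio of -0.86 ± 0.75 (SD, n = 4; exact sign-change test, p = 0.25). Distance was chosen after the data were seen, and the DMSO pretreatment set is counted in these sets and tests, so they are not independent of that choice. Without that set the mean log2 ratio was -0.75 with SN-38 and -0.95 with etoposide. With distance as a share of gene length the mean log2 ratio was -0.25 with etoposide (p = 0.13) and -0.60 with SN-38 (exact sign-change tests, p = 0.25). The share of intronic sites within 10 kb was higher with etoposide in 4 of 4 sets, by 14.5 ± 8.31 percentage points (SD, n = 4; exact sign-change test, p = 0.13, the smallest possible; adjusted p = 0.300 over 6 tests). With SN-38 this share was higher in 3 of 3 sets, by 13.9 ± 10.2 percentage points (SD, n = 3, exact sign-change test, p = 0.25, the smallest possible). The excess with SN-38 was small in the actinomycin D set, at 21.6% against 19.4% with DMSO. In the wash-out set it was 40.1% against 21.6%. In median distance, talazoparib lay on the same side of DMSO in the actinomycin D set as here, at 45.5 against 39.4 kb.

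**Figure D3:**
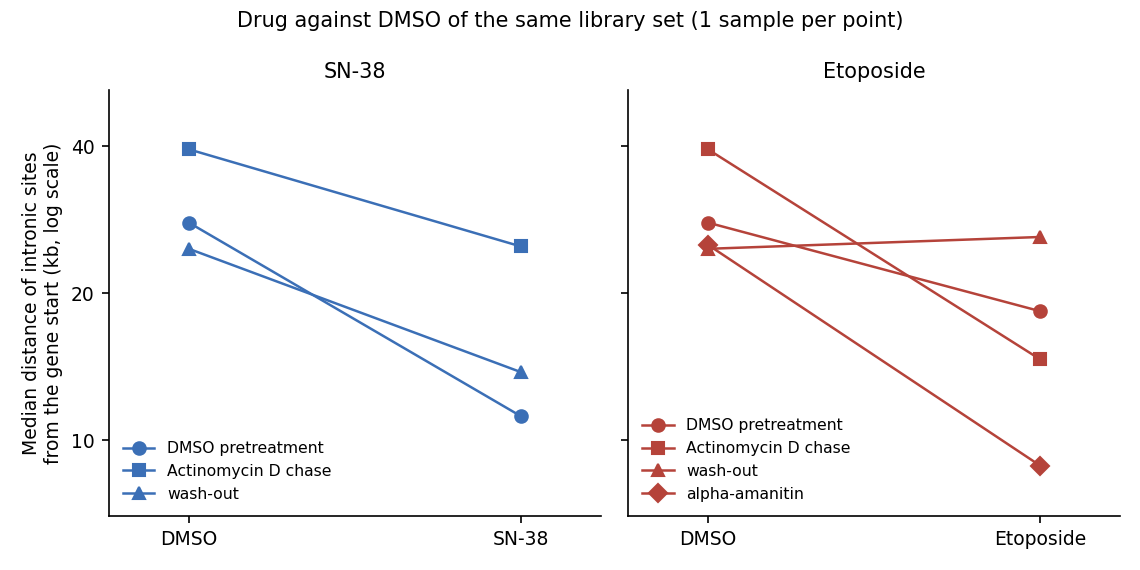
Median distance of intronic editing sites from the start of the host gene (y axis, kb, log scale) in the DMSO sample and the drug sample of each library set, with SN-38 on the left and etoposide on the right and 1 sample per point. All 3 lines of SN-38 fall (27.9 to 11.2, 39.4 to 24.9 and 24.6 to 13.8 kb), and 3 of the 4 lines of etoposide fall, with the wash-out set (24.6 to 26.1 kb) as the exception.

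Introns held most found sites in all 6 samples. Their share was 63.1% in the 3 h vehicle, 62.4% in the 6 h vehicle, 62.7% with talazoparib, 70.1% with mirin, 69.5% with SN-38 and 66.8% with etoposide, against 68.9% of all listed sites. The 3 drugs at 6 h lay above both vehicles and talazoparib between them. The drugs averaged 67.3 ± 3.35% (SD, n = 4) and the vehicles 62.8 ± 0.505% (SD, n = 2; exact permutation test, two-sided p = 0.267, adjusted p = 0.889 over 10 genomic elements). With only levels of at least 0.2 counted as found, the difference was 0.381 in place of 4.54 percentage points (exact permutation test, p = 0.800). In counts, 154 and 156 intronic sites in the vehicles stood against 160 with talazoparib, 265 with mirin, 228 with SN-38 and 260 with etoposide. Etoposide lay below DMSO in intronic share in the other sets. It was at 53.5 against 56.3% (actinomycin D), 47.6 against 55.1% (wash-out) and 36.2 against 52.9% (alpha-amanitin). SN-38 lay above DMSO there, at 64.7 against 56.3% (actinomycin D) and 61.6 against 55.1% (wash-out). Intronic share was not tested over sets.

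None of the other genomic elements passed the exact permutation test over samples either (adjusted p between 0.889 and 1). Sites in 3′ UTRs numbered 32 and 33 in the vehicles, 31 with talazoparib, 38 with mirin, 34 with SN-38 and 54 with etoposide, which was the highest count. Sites in 5′ UTRs numbered 10 and 9 in the vehicles, 4, 20, 12 and 14 with talazoparib, mirin, SN-38 and etoposide. VlincRNAs held 24 and 18 sites in the vehicles, 33 with talazoparib and 20 to 27 with the other drugs. Exons of lncRNAs held 0 and 7 in the vehicles, and 6 of these 7 lay in LINC00624 at levels of 0.25 to 0.464. No site of LINC00624 was found in the 3 h vehicle or with any drug, nor in the 9 samples of the other sets used here.

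Coding sequence held 12 of the found sites: 5 and 6 in the vehicles, 4 with talazoparib, 8 with mirin, and 2 each with SN-38 and etoposide (share of found sites, drugs against vehicles, exact permutation test, two-sided p = 0.267, adjusted p = 0.889). The paper reports that some of the listed coding sites failed its Sanger sequencing, so a coding site found here need not be an edited one. The 2 that remained with SN-38 and etoposide, in BLCAP and SON, were found in all 6 samples. At the BLCAP site shown above the level was 0.160 and 0.170 in the vehicles, 0.289 with talazoparib, 0.233 with mirin, 0.230 with SN-38 and 0.245 with etoposide, so that the groups did not overlap. Another coding site of BLCAP was at 0.05 in the 6 h vehicle, 0.0300 with talazoparib and 0.100 with mirin. In SON, which encodes a splicing cofactor, the level was 0.0200 and 0.0300 in the vehicles, 0.0200 with talazoparib, 0.0800 with mirin and 0.0400 with SN-38 and with etoposide.

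The other coding sites were found in 1 to 3 of the samples. COG3, a subunit of a Golgi tethering complex, was at 0.111 and 0.153 in the vehicles and 0.332 with mirin. RAPGEF2, a guanine nucleotide exchange factor, was at 0.500 in the 3 h vehicle and 0.750 with talazoparib. NEIL1 was found in the 3 h vehicle only (0.500), and OR51I1, an olfactory receptor gene beside the beta-globin locus (0.2), and CDK13, a kinase of transcription elongation (0.113), in the 6 h vehicle only. A pair of adjacent sites in SPG7, a mitochondrial protease (0.100 and 0.2), and sites in ZNF235 (0.25) and GRAMD4 (0.571) were found with mirin only. None of these levels carries an interval.

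At the 18 sites found in all 6 samples the level did not shift in 1 direction with the drugs. Their mean level was 0.259 in the 3 h vehicle, 0.346 in the 6 h vehicle, 0.274 with talazoparib, 0.359 with mirin, 0.323 with SN-38 and 0.327 with etoposide. The vehicles alone spanned nearly the whole range. The drugs averaged 0.321 ± 0.0352 (SD, n = 4) and the vehicles 0.302 ± 0.0614 (SD, n = 2), a difference of 0.0186 (exact permutation test, two-sided p = 0.800). Site by site, limma called 0 of the 18 (0%) at an adjusted p under 0.05, and 1 at an unadjusted p under 0.05, with 10 sites higher and 8 lower with the drugs and a median difference of 0.0165.

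The site with an unadjusted p under 0.05 was BLCAP, whose level was higher with the drugs by 0.0841 (SE 0.0302, limma adjusted p = 0.589). BLCAP was also the only 1 of the 18 sites (5.56%) where the drug and vehicle levels did not overlap. The largest upward differences were in CD164. At the first CD164 site shown above the level was 0.140 in both vehicles, 0.0900 with talazoparib, 0.296 with mirin, 0.434 with SN-38 and 0.380 with etoposide. At the second site it was 0.318 and 0.191 in the vehicles, 0.2 with talazoparib, 0.355 with mirin, 0.642 with SN-38 and 0.501 with etoposide. At both sites the 3 drugs at 6 h stood above both vehicles and talazoparib, with SN-38 highest, and the drug means were higher by 0.160 (SE 0.0983) and 0.170 (SE 0.126), with a limma adjusted p of 0.589 for each.

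The 3 drugs at 6 h also stood above the other samples at 3 more of the 18 sites, in CD2AP, BSDC1 and SON. This split was seen in the values and not tested. The highest drug differed, with etoposide at CD2AP, SN-38 at BSDC1 and mirin at SON. At SON the margin was narrow, with SN-38 and etoposide at 0.0400 and the 6 h vehicle at 0.0300. In the 3′ UTR of CD2AP, an adaptor of the actin cytoskeleton, the level was 0.0900 and 0.12 in the vehicles, 0.110 with talazoparib, 0.190 with mirin, 0.240 with SN-38 and 0.500 with etoposide. The CD2AP adenosine lies where a run of GT meets a run of AT in the genome, so its editing is uncertain. In the 3′ UTR of BSDC1 it was 0.0400 and 0.110 in the vehicles, 0.0900 with talazoparib, 0.187 with mirin, 0.235 with SN-38 and 0.111 with etoposide, so that etoposide stood barely above the 6 h vehicle. None of the 18 sites had the 3 drugs at 6 h below the other samples.

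The site with the largest lower mean was SSR4, and this rested on the 6 h vehicle. Its level was 0.302 in the 3 h vehicle, 0.712 in the 6 h vehicle, 0.240 with talazoparib, 0.388 with mirin, 0.25 with SN-38 and 0.194 with etoposide (difference -0.239, SE 0.12, limma adjusted p = 0.589). Of the 8 largest differences, the other 2 were the intronic site of LUC7L, a splicing factor, at 0.568 and 0.755 in the vehicles and 0.661 to 0.846 with the drugs, and 1 site of the EIF2AK2 3′ UTR, at 0.249 and 0.361 in the vehicles and 0.205 to 0.275 with the drugs. The highest mean levels were at NUP58, a nuclear pore gene, and LUC7L. At an intronic site of NUP58 the level was 0.815 and 1.00 in the vehicles, 0.882 with talazoparib, 0.885 with mirin, 0.917 with SN-38 and 0.811 with etoposide.

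**Figure D4:**
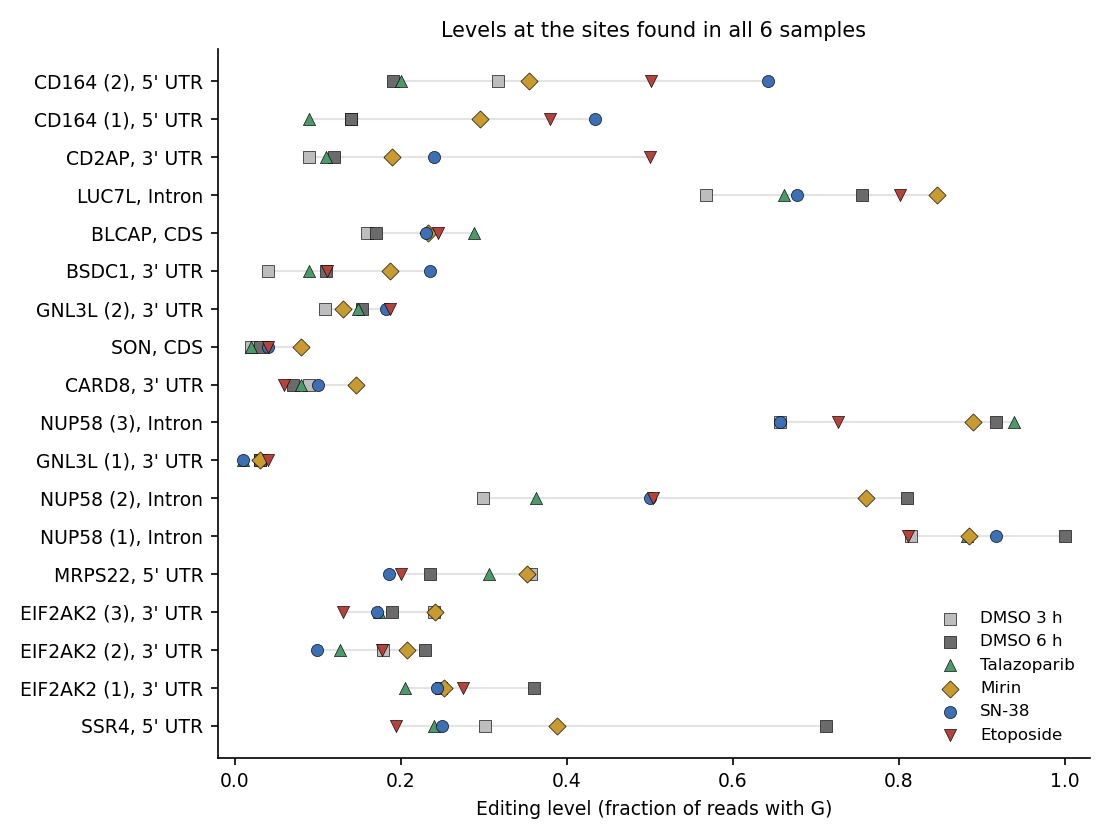
Editing level (x axis, fraction of reads with G) at each of the 18 sites found in all 6 samples (y axis, host gene and genomic element, ordered by the drug minus vehicle difference), with 1 marker per sample. At both CD164 sites SN-38 (0.434 and 0.642), etoposide (0.380 and 0.501) and mirin (0.296 and 0.355) lie to the right of the other samples, while at SSR4 the 6 h vehicle (0.712) stands alone.

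Over all sites that a drug shared with its own vehicle, levels differed by little at the median and widely at single sites. The median difference was -0.0099 for talazoparib (80 sites, SD 0.156), 0.0280 for mirin (92 sites, SD 0.188), -0.010 for SN-38 (67 sites, SD 0.197) and -0.015 for etoposide (82 sites, SD 0.235). The 6 h vehicle minus the 3 h vehicle gave 0.050 (73 sites, SD 0.169), which is larger than any of these. A difference of 0.2 or more upward was seen at 6 sites (7.5%) with talazoparib, 15 (16.3%) with mirin, 7 (10.4%) with SN-38 and 13 (15.9%) with etoposide, and downward at 8 (10%), 12 (13%), 11 (16.4%) and 20 (24.4%). Between the vehicles 18 sites (24.7%) were higher and 3 (4.11%) lower at 6 h. In all, 21 of 73 sites differed by 0.2 or more between the vehicles, beside 14 of 80 with talazoparib, 27 of 92 with mirin, 18 of 67 with SN-38 and 33 of 82 with etoposide. Which of these shares differ from that of the vehicles was not tested. Against the mean of both vehicles, over the sites found with the drug and in both vehicles, the median difference was -0.0050 for talazoparib, 0.0595 for mirin, 0.0163 for SN-38 and 0.0098 for etoposide, so that the sign for SN-38 and etoposide and the size for mirin rest on the vehicle chosen.

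The sites with the 3 largest differences of each drug were found in 2 to 75 of the other 89 samples. For talazoparib they were 2 adjacent sites in the 3′ UTR of AJUBA, a LIM protein, at 0.750 in the 3 h vehicle and 0.333 with the drug, and a site in the 3′ UTR of RSPH3 (0.667 and 0.275). For mirin they were SMU1 in its 3′ UTR (0.750 in the 6 h vehicle and 0.111 with mirin), ZNF891 in its 5′ UTR (0.375 and 0.846) and RP9P (0.429 and 0.875). For SN-38 they were an intronic site of PDE8A, a cyclic AMP phosphodiesterase (0.187 and 0.750), the same SMU1 site (0.198 with SN-38) and PWP1 (0.271 and 0.735). At PDE8A the other samples with a level were at 0.25 to 0.262, so SN-38 stood alone there. For etoposide they were RAB3GAP2 (1.00 and 0.333), SSR4 and ZNF891 (0.879 with etoposide).

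Host genes of found sites numbered 148 and 159 in the vehicles, 155 with talazoparib, 205 with mirin, 179 with SN-38 and 213 with etoposide. The drugs averaged 188 ± 26.4 genes (SD, n = 4) and the vehicles 154 ± 7.78 (SD, n = 2; exact permutation test, two-sided p = 0.267, adjusted p = 0.711). Most gained sites came from genes without a found site in the vehicle of the pair: 169 of the 286 sites of mirin alone, 171 of 261 with SN-38 and 200 of 307 with etoposide. Between the vehicles 102 of 177 sites of the 6 h vehicle alone did so.

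For SN-38 the genes with the largest excess of sites over the vehicle were ZFR, a zinc finger RNA-binding protein, CMSS1 and STXBP5, a syntaxin-binding protein. ZFR had 7 sites with SN-38, 1 with etoposide and none in the other 4 samples, at 12.4 to 12.5 kb from the start of a gene of 90.4 kb, with a median level of 0.118. CMSS1 had 7 sites with SN-38, at 21.8 to 23.6 kb of 364 kb, 2 with etoposide and 1 with talazoparib. STXBP5 had 7 sites with SN-38, against 3 and 1 in the vehicles and 5 with talazoparib. In the actinomycin D set CMSS1 had 7 sites with DMSO and 6 with SN-38 and STXBP5 had 3 and 1, and in the wash-out set CMSS1 had 0 with both and STXBP5 3 and 1, so the excess of these genes was not seen there.

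Etoposide had its largest excess in RSPH3, a radial spoke protein gene, where 14 sites of the 3′ UTR were found, against 2 and 0 in the vehicles, 3 with talazoparib, 2 with mirin and 0 with SN-38. Their median level with etoposide was 0.225. FRYL, a large gene of 283 kb, had 7 sites with etoposide and 4 with SN-38 and none in the other samples, all within 7.16 to 8.20 kb of its start, with median levels of 0.240 and 0.25. In the other sets FRYL sites were found with SN-38 (2 in the actinomycin D and 2 in the wash-out set) and etoposide (1 in the actinomycin D set, 0 in the others), and none in the 3 DMSO samples. STARD4, a sterol transfer protein gene, had 7 sites with etoposide and 9 with mirin against 0 in the 6 h vehicle, but also 8 in the 3 h vehicle and 5 with talazoparib, so that the 6 h vehicle and SN-38 (0) were the samples without them.

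Mirin also exceeded its vehicle in RAB3GAP2, a Rab3 GTPase-activating protein subunit (10 sites against 4), and in SMU1, a spliceosome component (9 against 3). RAB3GAP2 had 7 sites with etoposide and 4 with SN-38, and SMU1 had 7 and 8. Talazoparib exceeded the 3 h vehicle in NEK7, a kinase gene (5 against 0), SUSD1 (6 against 2) and AJUBA (6 against 2), and fell short of it in KCTD13 (2 against 8) and FRRS1 (0 against 3). KCTD13 was low with etoposide as well (1 against 6), but not with mirin (7) or SN-38 (8). In the actinomycin D set KCTD13 had 0 sites with DMSO, 1 with talazoparib and 2 with etoposide. It had 0 with DMSO and 0 with etoposide in the wash-out set, and 5 and 4 in the alpha-amanitin set. A deficit of the size seen here was thus not found in those sets.

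LINC00534 held 5 sites in each vehicle and 4 with talazoparib, but none with mirin or SN-38 and 1 with etoposide, at 100 to 110 kb from its start in a gene of 467 kb. The other sets showed the same sides of DMSO for the topoisomerase drugs: 9 sites with DMSO, 9 with talazoparib, 1 with SN-38 and 3 with etoposide in the actinomycin D set, 10, 1 (SN-38) and 0 (etoposide) in the wash-out set, and 10 and 0 (etoposide) in the alpha-amanitin set. LINC00534 was thus below DMSO in 3 of 3 sets with SN-38 and 4 of 4 with etoposide. The gene was named for its deficit in the DMSO pretreatment set, and no test was made over genes.

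**Figure D5:**
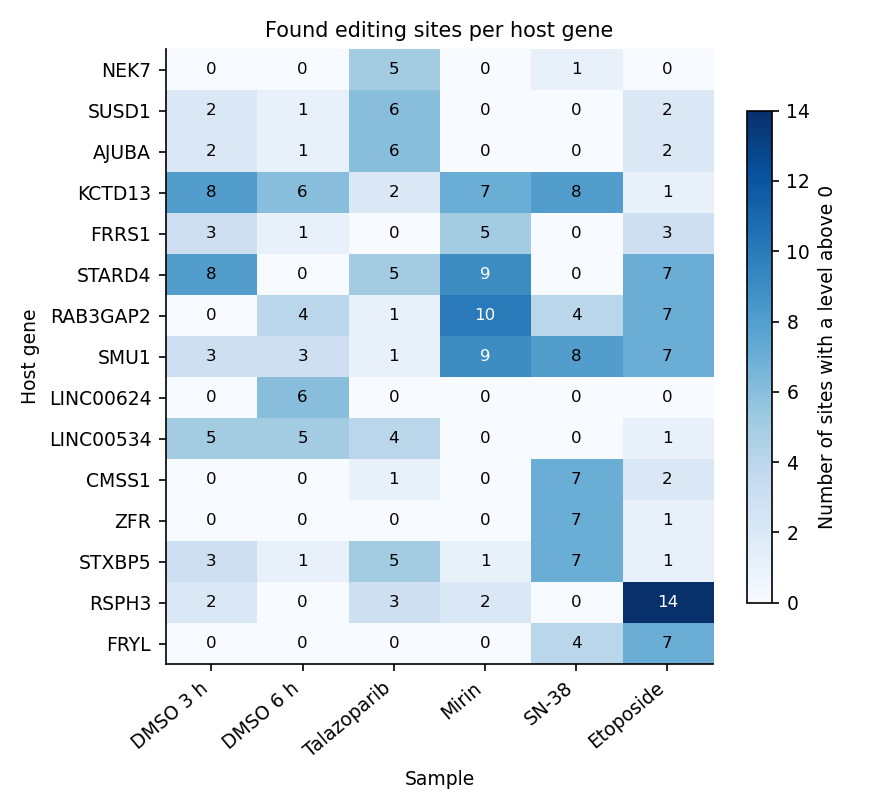
Number of found editing sites (cell value and colour) in each sample (x axis) for the host genes with the largest excess or deficit against the vehicle of the same duration (y axis). RSPH3 (14 with etoposide), ZFR and CMSS1 (7 each with SN-38) and FRYL (7 and 4) stand out from the vehicles, while LINC00534 (5, 5 and 4 against 0, 0 and 1) is seen in both vehicles and with talazoparib.

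Of 9 drug target genes, 2 had listed sites and 1, MRE11, the nuclease that mirin inhibits, had found ones. Found were 4 of the 16 sites listed in these genes (25%, beside 28.3% of all listed sites). MRE11 was at 0.308 at an intronic site in the 6 h vehicle and 0.270 at the same site with talazoparib, at 0.12 in the 3′ UTR with SN-38, and at 0.160 and 0.170 at 2 other intronic sites with etoposide. No MRE11 site was found with mirin, nor in the 3 h vehicle. Of the 13 listed MRE11 sites, 1 was found in the DMSO sample of the alpha-amanitin set. None was found in the other samples of the 3 other sets, so mirin did not stand apart. Of 81 genes of the DNA damage response and repair, 14 had listed sites and 4 had found ones. Their found sites were 9 of 40 listed (22.5%, beside 28.3% of all listed sites), with 2 sites in the 3 h vehicle, 0 in the 6 h vehicle, 2 with talazoparib, 2 with mirin, 1 with SN-38 and 3 with etoposide.

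The 9 sites of these 4 genes were scattered. ERCC6, of transcription-coupled repair, had 2 intronic sites with talazoparib (0.500 and 0.333). BLM, a RecQ helicase, had 2 intronic sites with etoposide (0.500 each) and 1 with mirin (0.366). RAD18, a ubiquitin ligase of lesion bypass, had 3 sites, at 0.429 in the 3 h vehicle and 0.750 with mirin at 1 of them, 0.222 with SN-38 and 0.500 with etoposide at the others. NEIL1 was named above. None of the 14 genes of the p53 pathway had a listed site.

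Of 20 genes of RNA editing and double-stranded RNA sensing, 2 had listed sites and 1 had found ones, EIF2AK2, which encodes the kinase PKR. Its 9 found sites in the 3′ UTR numbered 5 and 7 in the vehicles, 4 with talazoparib, 5 with mirin, 5 with SN-38 and 4 with etoposide. They were 9 of the 10 sites listed in the 2 genes (90%, beside 28.3% of all listed sites). The 3 found in all samples were at 0.178 to 0.361 in the vehicles and 0.0992 to 0.275 with the drugs, with differences of drug and vehicle means of -0.0607 to -0.0354 and a limma adjusted p between 0.589 and 0.678.

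Zinc finger genes of the ZNF family held 24 found sites in 12 genes, of 108 listed (22.2%, beside 28.3% of all listed sites). There were 3 and 2 in the vehicles, 2 with talazoparib, 4 with mirin, 5 with SN-38 and 16 with etoposide. Against the 6 h vehicle, 15 of the 17 ZNF sites found in either were in the etoposide sample only, beside 55.1% of all sites. A cluster of 6 sites in the 3′ UTR of ZNF514 (levels of 0.143 to 0.4) and 4 sites in ZNF654, listed under vlincRNA (0.0870 to 0.583), made up 10 of the 16. In the other sets ZNF514 had 6 sites with DMSO and 4 with etoposide (actinomycin D), 6 and 2 (wash-out) and 8 and 9 (alpha-amanitin), so that etoposide was below DMSO in 2 of these 3. ZNF654 was found with SN-38 too, at 3 sites (0.214 to 0.545), and in no other of the 6 samples. The ZNF514 sites also overlap another gene of the same strand, so their host is uncertain.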

How the data were processed

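The authors extracted total RNA, depleted ribosomal RNA and had strand-specific paired-end libraries sequenced; the labels name a NovaSeq and the methods a HiSeq instrument. They aligned the reads to GRCh38 with TopHat2 2.1.1, removed duplicates with Picard 2.0.1, sorted with SAMtools 1.9 and searched each sample for sites with REDItools, SPRINT and RED-ML. Known variants, repeats and poorly mappable regions had been taken out, and the authors kept sites seen in several samples with a high enough maximum level, so sites outside these filters cannot be found here. The deposited value is an editing level as a fraction, averaged over the tools that found the site. Genomic elements are the authors'.

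Of 130 columns, 95 were mapped to samples and 35 were not used here. Of 4149 sites, 57 found by Sanger only have no level. Found means above 0. Site depth is unknown. Hosts, exons and gene starts came from GENCODE release 44 (same strand, coding or exonic gene first); 1 of several genes was chosen where genes overlap. Sequences were read from GRCh38. Tests were exact permutation tests over samples (scipy 1.17.1), exact sign-change tests over library sets and limma 3.58.1 in R 4.3.3 with Benjamini-Hochberg adjustment, checked on simulated data. Library sets are treatment series grouped by the sample titles, and the labels state no batch. The time course was left out of these sets because drug names conflict, but its DMSO samples are among the other DMSO-only samples. Clusters join sites within 100 bases. Named were sites found with all or no drugs, the 8 largest differences and 3 highest levels of the shared sites, 3 excess and 2 deficit host genes and 3 largest level differences per drug, all coding sites, and found genes of the target and repair lists. The members and lists were chosen with earlier results of these data known. Numbers of sequenced reads per library, used for ratios per read, were those listed by the study.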

Additional observations from a re-analysis of the deposited data

Results flagged for a closer look

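In a check of 36 sets of 4 values for a sample far from the others, 2 stood out, about as many as chance gives (1 in 20). VlincRNAs held 12.9% of the sites found with talazoparib, beside 6.10 to 6.94% with the other 3 drugs and 7.20 and 9.84% in the vehicles. Sites antisense to exons made up 0% with talazoparib and 0.257 to 0.305% with the other drugs, which is 1 site in each of those samples.

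Differences of opposite direction between library sets were seen for 2 drugs, and these were not tested as differences between sets. The number of found sites with talazoparib was 1.05 times that of DMSO in the DMSO pretreatment set (3 h) and 0.905 times in the actinomycin D set (6 h). With etoposide it was 1.56 times in the DMSO pretreatment set, 1.06 in the actinomycin D set, 0.466 in the wash-out set and 0.608 in the alpha-amanitin set. The median distance of intronic sites from the gene start with etoposide was 0.659, 0.371, 1.06 and 0.353 times that of DMSO in the same order of sets.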

How the results depend on the processing

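Of 106 recomputed values, 102 kept their direction and 4 changed it, and none changed its side of the threshold, which few of these tests could pass. The settings were a level of at least 0.2, 1 site per cluster, annotated sites, at least 2 tools, read totals, 1 value per host gene, distance as a share of gene length, sites overlapping 1 gene, the 6 h samples, the mean of both vehicles, the median level, other sets of shared sites, the logit scale, duration as a term, and leaving out samples or library sets. The mean level at shared sites, 0.0186 higher with the drugs, was -0.0287 without the 3 h vehicle and ran from -0.0287 to 0.0624 over the samples left out, so its sign rests on that library. The mean log2 ratio of found sites with etoposide over sets was 0.0015 without the wash-out set and ran from -0.58 to 0.0015; the cause was not tested. Against the mean of both vehicles the median level difference turned from -0.010 to 0.0163 for SN-38 and from -0.015 to 0.0098 for etoposide and moved from 0.0280 to 0.0595 for mirin. With a level of at least 0.2 counted as found, the difference in intronic share moved from 4.54 to 0.381 percentage points. The mean level difference was 0.0027 over sites with a level in both vehicles and at least 1 drug. As a share of gene length, the mean log2 ratio of distance moved from -0.86 to -0.25 with etoposide and from -0.94 to -0.60 with SN-38. Leaving out samples, the ratio of found sites ran from 1.3 to 1.48, the difference in intronic share from 3.61 to 6.06 percentage points and the number of sites with a changed level stayed at 0, as it did over 128 sites with a level in at least 1 vehicle and 2 drugs. Leaving out sets, the log2 ratio with SN-38 ran from 0.32 to 0.49 for found sites and from -1.08 to -0.75 for distance, and for distance with etoposide from -1.18 to -0.65. No paired analysis was possible within the DMSO pretreatment set because each condition is 1 sample and no replicate numbers are shared, while drug and DMSO samples were paired within library sets. Without depth at sites, a site that was not found cannot be called unedited, and with 4 drug and 2 vehicle samples no test could pass the threshold except limma's.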

Other observations

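The base before the edited adenosine varied little with treatment. T stood there at 57.4% and 48.8% of found sites in the vehicles, 54.9% with talazoparib, 55.8% with mirin, 49.4% with SN-38 and 54.2% with etoposide, against 49.3% of all listed sites. The vehicles alone spanned the values of all 4 drugs. G stood there at 2.05 to 4.00% of found sites in the 6 samples.

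Sites that a drug shared with its vehicle were lower in level than those found in 1 of the pair. With mirin the shared sites had a median level of 0.293, beside 0.366 for the sites with mirin alone, and with SN-38 these were 0.275 and 0.333. Between the vehicles the order was the opposite in the 6 h vehicle, at 0.427 for shared sites and 0.375 for its own. The depth at these sites is unknown, and its part in this was not tested.

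Other host genes named for an excess did not keep it in every set. ZFR had 6 sites with SN-38 and 5 with etoposide in the actinomycin D set, beside 1 with DMSO, but 0 with both drugs in the wash-out set, beside 1 with DMSO. RSPH3, with 14 sites after etoposide in the DMSO pretreatment set, had 4 with etoposide and 1 with DMSO in the actinomycin D set, and 0 with etoposide against 7 with DMSO in the alpha-amanitin set. STARD4 had 0 sites with etoposide in the other 3 sets, beside 0, 1 and 2 with DMSO. Of the genes named for talazoparib, NEK7 had 1 site with the drug and 0 with DMSO in the actinomycin D set, SUSD1 0 and 1, and AJUBA 3 and 2.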
